A study of Mus musculus with 12 samples.

Results

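The genes described here are 10 sensors of foreign or misplaced nucleic acid, the adaptors MAVS and STING counted among them, in mouse bone marrow macrophages. They were listed by name, with earlier results of these data known: Ddx58 (RIG-I), Ifih1 (MDA5), Dhx58 (LGP2), Mavs, Mb21d1 (cGAS), Tmem173 (STING), Zbp1, Tlr3, Tlr7 and Tlr9. All 10 were present among the 24394 gene rows shared by the 12 libraries, and all 10 passed the filter on low values in both experiments. They fall into 3 classes by where they meet their ligand. RIG-I and MDA5 bind viral RNA in the cytosol through a helicase domain and signal through the mitochondrial adaptor MAVS, while LGP2 lacks the signalling domain and tunes the other two. cGAS binds cytosolic DNA and makes a cyclic dinucleotide that activates STING in the endoplasmic reticulum, and ZBP1 binds Z-form nucleic acid and can trigger necroptosis. TLR3, TLR7 and TLR9 meet double-stranded RNA, single-stranded RNA and CpG DNA in endosomes. Most of these routes can end in type I interferon (IFN), several of the sensors are themselves induced by IFN, and IFN-β is a known brake on osteoclast formation from macrophages.

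RNA-seq was made in 2 experiments on C57BL/6 mice, with 2 replicates in each of 6 conditions. In the loss of function experiment, WT cells (Mir182+/+LysMcre(+)) and Mir182ΔM/ΔM cells (Mir182flox/floxLysMcre(+)) were taken without RANKL, the cytokine that turns macrophages into osteoclasts, or after RANKL for 5 days. In the gain of function experiment, Control cells (LysMcre(+)) and Mir182mTg cells (LSL-Mir182LysMcre(+)) were taken without RANKL. Bone marrow from femur and tibia had first been grown with M-CSF for 3 days, and ages are not given in the sources used here. Every group thus carries Cre driven by the lysozyme M promoter, a myeloid driver, so deletion or activation of Mir182 depends on Cre activity in each cell, and the transgene sits at Rosa26 behind a floxed stop. The Mir182 row held 79 and 123 reads in the Mir182mTg libraries, 1 read in 1 Mir182ΔM/ΔM Basal library and none elsewhere, WT included, so the overexpression is visible and the deletion cannot be checked from this row.

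Levels are given as CPM, a gene's reads scaled to a common library total. The libraries held 24951280 to 33050619 reads on genes, and 3 reads, the lowest number interpreted, correspond to 0.0908 to 0.12 CPM, which is far below every sensor level given here. The macrophage markers Csf1r, Adgre1, Cd68, Itgam, Fcgr1 and Mertk summed to between 5620 and 8475 CPM in all libraries, and 7 osteoclast markers summed to 39.6 to 74.8 CPM without RANKL, 9902 to 10239 CPM in WT RANKL and 3054 to 3060 CPM in Mir182ΔM/ΔM RANKL. In bulk cultures fewer cells of a type and less RNA per cell cannot be told apart. Plasmacytoid dendritic cells, rich in Tlr7 and Tlr9, left little trace, since their 5 markers together reached at most 2.01 CPM in a library. Replicate 1 and replicate 2 of every condition differ in their labels (poly-A RNA against total RNA) and in the tools named in the submitters' processing notes. The ribosomal transcript Rn45s moved with that number, from 742 to 1176 CPM in replicate 1 to between 9778 and 21273 CPM in replicate 2. In 50 sensor differences (10 sensors in 5 comparisons of 2 groups), each computed within replicate 1 and within replicate 2, the log2 values were at most 0.25 apart and 46 had the same sign. The exceptions were Mavs, Mb21d1, Tmem173 and Tlr9 (-0.16 against 0.08) in the gain of function comparison.

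The 2 WT RANKL libraries stand apart from the rest of the loss of function experiment. Lyz2, which encodes lysozyme M, was at 4117 and 4288 CPM in WT RANKL but between 22.5 and 44.0 CPM in the other loss of function libraries, against 5783 to 7062 CPM in the gain of function libraries. Ifi202b was at 1.12 and 0.972 CPM in WT RANKL, between 82.1 and 152 CPM in the other loss of function libraries, and at most 0.0908 CPM in the gain of function libraries. On both genes the libraries labelled WT RANKL therefore resembled Control and Mir182mTg rather than WT Basal. The part of this in the results was not tested, and no comparison with WT RANKL can be made without both libraries. The values of Control Basal are therefore set beside such results, with no test across the 2 experiments.

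**Figure D1:**
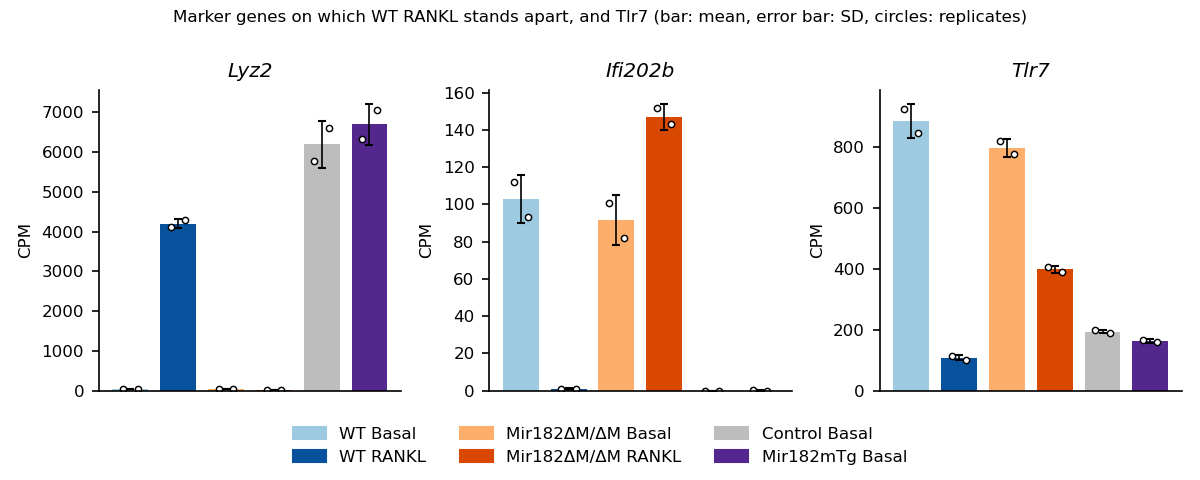
Lyz2, Ifi202b and Tlr7 in CPM (y axis, linear) in the 6 conditions, as bars for the mean of 2 replicates, error bars for the SD and circles for each replicate. Lyz2 is high and Ifi202b near 0 in WT RANKL, as in Control Basal and Mir182mTg Basal, and Tlr7 is lowest in WT RANKL, at a mean of 108 CPM.

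The miRNA that the study removed or added is shown first, because its seed can be looked for in the sensor transcripts. Mature miR-182-5p (RefSeq, GRCm38.p6, chr6:30165962-30165986, minus strand) is printed with its seed, bases 2 to 8, in capitals.
mmu-miR-182-5p: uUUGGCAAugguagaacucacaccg
A miRNA of this kind pairs through its seed with sites in the 3′ UTR of target mRNAs and usually lowers them. A match to the seed (TTGCCAA), or to its first 6 bases followed by A (TGCCAAA), was found in the annotated 3′ UTRs of 2 of the 10 sensors, Ifih1 and Tmem173, against 18.6% of 19511 mouse genes with a 3′ UTR. Ifih1 holds 2 sites in its 3′ UTR on the minus strand of chromosome 2, one 28 bases after the stop codon (chr2:62597875-62597881) and one 1003 bases after it (chr2:62596900-62596906). The pairing bases are in capitals.
Ifih1 first site: attttaaaataTTGCCAActcaacattga
Ifih1 second site: gctgttttgtaTGCCAAAcatctagatgt
No such match was found for the other 8 sensors, which include Zbp1, the sensor with the widest range of levels. A match is a description of the letters and not evidence of pairing.

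The 3 cytosolic RNA sensors were at their highest in Mir182ΔM/ΔM cells after RANKL. Ddx58 (chr4:40203773-40239828, minus strand) encodes RIG-I, which recognises RNA with a triphosphate end. It was measured at 131 and 113 CPM in WT Basal, 178 and 157 CPM in WT RANKL, 200 and 174 CPM in Mir182ΔM/ΔM Basal, and 661 and 597 CPM in Mir182ΔM/ΔM RANKL. It was at 65.6 and 63.2 CPM in Control Basal and at 57.8 and 54.0 CPM in Mir182mTg Basal. The highest group thus had more than every other library, and only Mir182ΔM/ΔM Basal and WT RANKL overlapped among neighbours in the order of levels. After RANKL, Ddx58 was 3.76-fold higher in Mir182ΔM/ΔM than in WT (log2 fold change 1.90 ± 0.11 SE, adjusted p = 2.0e-05, limma).

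Ifih1 (chr2:62595798-62646255, minus strand) encodes MDA5, which binds long double-stranded RNA. It read 57.8 and 48.1 CPM in WT Basal, 47.2 and 44.8 CPM in WT RANKL, 90.5 and 84.2 CPM in Mir182ΔM/ΔM Basal, 194 and 180.2 CPM in Mir182ΔM/ΔM RANKL, 42.3 and 38.1 CPM in Control Basal and 34.2 and 31.8 CPM in Mir182mTg Basal. No 2 neighbouring groups overlapped in this order. The difference between genotypes after RANKL was 4.07-fold (log2 2.0 ± 0.10 SE, adjusted p = 1.0e-05). Dhx58 (chr11:100694884-100704271, minus strand) encodes LGP2, the regulator of the other two. It was at 54.1 and 60.5 CPM in WT Basal, 41.1 and 47.0 CPM in WT RANKL, 95.4 and 107 CPM in Mir182ΔM/ΔM Basal, 224 and 249 CPM in Mir182ΔM/ΔM RANKL, 41.1 and 43.9 CPM in Control Basal and 35.8 and 40.8 CPM in Mir182mTg Basal. Dhx58 was 5.37-fold higher in Mir182ΔM/ΔM than in WT after RANKL (log2 2.40 ± 0.10 SE, adjusted p = 6.3e-06). WT RANKL and Control Basal overlapped for this gene and lay below both Mir182ΔM/ΔM groups.

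Mavs (chr2:131234063-131248025, plus strand), the adaptor that RIG-I and MDA5 share, had the narrowest range of the 10 genes. It lay between 69.7 and 95.7 CPM in all 12 libraries, and its highest group mean was 1.29 times its lowest. Mir182ΔM/ΔM RANKL had 85.6 and 83.8 CPM and WT RANKL had 95.7 and 88.7 CPM, a log2 difference of -0.12 ± 0.067 SE that did not pass the test (adjusted p = 0.187). With replicate number as a block the same difference passed (adjusted p = 0.0120), and with TMM factors it was 0.03, so its direction depends on the scaling. The receptors upstream thus differed between genotypes by 1.90 to 2.40 on the log2 scale while the difference of the adaptor that RIG-I and MDA5 signal through was -0.12.

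The promoters of the sensors were searched for the core of the interferon-stimulated response element (ISRE), a sequence through which IFN induces genes. RefSeq promoter windows of 300 bases (250 before to 50 after the start) were at hand for 6 of the 10 genes. The letters GAAANNGAAA, searched on both strands, were in 2 of these 6, Ddx58 and Ifih1, against 3.44% of 32851 mouse promoters. The windows are printed in the direction of transcription with the ISRE core in capitals, which begins 2 bases past the start in Ddx58, where it reads on the opposite strand (chr4:40239776-40240075, GRCm38.p6, minus strand), and 32 bases past it in Ifih1 (chr2:62646206-62646505, minus strand).
Ddx58: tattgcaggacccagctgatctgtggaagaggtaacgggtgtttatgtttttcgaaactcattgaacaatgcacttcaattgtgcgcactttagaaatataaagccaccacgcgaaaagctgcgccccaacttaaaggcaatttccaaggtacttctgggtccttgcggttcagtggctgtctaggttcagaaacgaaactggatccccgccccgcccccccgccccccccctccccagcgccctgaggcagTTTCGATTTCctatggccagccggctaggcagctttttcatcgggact
Ifih1: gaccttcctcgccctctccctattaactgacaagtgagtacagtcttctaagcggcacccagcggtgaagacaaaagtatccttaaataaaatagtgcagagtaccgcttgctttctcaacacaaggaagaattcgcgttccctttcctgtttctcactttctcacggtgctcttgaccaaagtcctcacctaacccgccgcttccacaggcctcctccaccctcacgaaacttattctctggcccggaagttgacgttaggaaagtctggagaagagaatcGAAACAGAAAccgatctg
Mavs and Tlr9, and also Mb21d1 and Tlr3, which were higher in Mir182ΔM/ΔM after RANKL like Ddx58 and Ifih1, did not hold these letters in this window. The windows of Dhx58, Tmem173, Zbp1 and Tlr7 were not used here.

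Among the cytosolic DNA sensors, cGAS rose and STING fell in the same comparison. Mb21d1 (chr9:78430526-78443237, minus strand) encodes cGAS, and was measured at 20.0 and 16.5 CPM in WT Basal, 25.2 and 23.9 CPM in WT RANKL, 31.3 and 27.7 CPM in Mir182ΔM/ΔM Basal and 57.0 and 54.4 CPM in Mir182ΔM/ΔM RANKL. In the gain of function experiment it was at 40.5 and 37.3 CPM in Control Basal and at 42.0 and 34.8 CPM in Mir182mTg Basal, above both WT groups. After RANKL it was 2.27-fold higher in Mir182ΔM/ΔM than in WT (log2 1.15 ± 0.11 SE, adjusted p = 0.00019). Mir182ΔM/ΔM RANKL was thus the highest of the 6 groups, Control Basal included.

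Tmem173, which encodes STING, the receptor for the product of cGAS, was lowest in the group where Mb21d1 was highest. It stood at 81.9 and 77.7 CPM in WT Basal, 57.7 and 56.3 CPM in WT RANKL, 74.4 and 72.2 CPM in Mir182ΔM/ΔM Basal, 29.1 and 32.0 CPM in Mir182ΔM/ΔM RANKL, 55.8 and 59.8 CPM in Control Basal and 61.3 and 58.3 CPM in Mir182mTg Basal. Mir182ΔM/ΔM RANKL was the lowest of the 6 groups without overlap, 1.87-fold below WT RANKL (log2 -0.88 ± 0.073 SE, adjusted p = 9.9e-05). Without RANKL the genotypes differed by log2 -0.12 ± 0.073 SE (adjusted p = 0.513). Tmem173 is one of the 2 genes with a seed match, and its mRNA was not higher in the cells labelled as lacking Mir182.

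Zbp1 (chr2:173206612-173218923, minus strand) had the widest range of all. This sensor of Z-form RNA and DNA passes its signal to the kinase RIPK3. Zbp1 was at 21.7 and 18.8 CPM in WT Basal, 12.3 and 11.5 CPM in WT RANKL, 53.4 and 52.2 CPM in Mir182ΔM/ΔM Basal and 222 and 203 CPM in Mir182ΔM/ΔM RANKL. Control Basal had 10.3 and 9.60 CPM and Mir182mTg Basal had 4.02 and 3.87 CPM. No 2 neighbouring groups overlapped, and the highest group mean was 53.9 times the lowest, taken across the 2 experiments. The genotypes differed 17.8-fold after RANKL (log2 4.05 ± 0.092 SE, adjusted p = 5.2e-07), and WT RANKL was itself close to Control Basal, at 11.9 ± 0.576 against 9.97 ± 0.526 CPM (mean ± SD, n = 2).

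The 3 endosomal receptors each had a pattern of their own. Tlr3 (chr8:45395665-45411080, minus strand), which signals through the adaptor TRIF, followed the cytosolic RNA sensors. It read 28.6 and 25.7 CPM in WT Basal, 21.7 and 19.7 CPM in WT RANKL, 42.4 and 36.8 CPM in Mir182ΔM/ΔM Basal, 57.0 and 50.2 CPM in Mir182ΔM/ΔM RANKL, 30.3 and 25.3 CPM in Control Basal and 28.2 and 24.1 CPM in Mir182mTg Basal. The genotypes differed 2.59-fold after RANKL (log2 1.33 ± 0.11 SE, adjusted p = 9.8e-05). Control Basal, WT Basal and Mir182mTg Basal could not be ordered, since their replicates overlapped.

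Tlr7 (chrX:167304929-167330558, minus strand), the receptor for single-stranded RNA that signals through MYD88, fell with RANKL in both genotypes. It was at 924 and 845 CPM in WT Basal, 114 and 102 CPM in WT RANKL, 818 and 776 CPM in Mir182ΔM/ΔM Basal and 405 and 391 CPM in Mir182ΔM/ΔM RANKL. Control Basal held 198 and 190.1 CPM and Mir182mTg Basal 167 and 159.5 CPM, so WT Basal had 4.56 times the level of Control Basal for this gene. After RANKL, Tlr7 was 3.69-fold higher in Mir182ΔM/ΔM than in WT (log2 1.87 ± 0.079 SE, adjusted p = 5.4e-06). The fall with RANKL was 8.19-fold in WT (log2 -3.02 ± 0.079 SE, adjusted p = 2.5e-07) and 2.0-fold in Mir182ΔM/ΔM (log2 -1.0 ± 0.079 SE, adjusted p = 4.2e-05). Set beside Control Basal, WT RANKL was 1.80-fold lower, so the size of the fall in WT rests on which unstimulated cells it is read against. Mir182ΔM/ΔM RANKL lay between Control Basal and WT Basal.

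Genes beside Tlr7 on chromosome X, looked up after this was seen, mostly had more in WT Basal than in Control Basal as well. The 4 nearest protein-coding RefSeq genes on each side (GRCm38.p6) that had a gene row here were taken, of which Egfl6 and Frmpd4 were at or near 0. Tlr8, its nearest neighbour and also a receptor for single-stranded RNA, was 3.2 times as high in WT Basal as in Control Basal, and Prps2 on the other side 2.06 times. Farther off, Arhgap6 stood at 2.71 times, Msl3 at 1.79 times, Tmsb4x at 1.22 times and Tceanc at 0.985 times. The other sensors, which lie elsewhere in the genome, ranged from 0.469 times (Mb21d1) to 2.24 times (Tlr9) in the same ratio. The share of all genes with more in WT Basal is not given, so the neighbours are not shown to differ from other genes. These are descriptions with no test, since the experiments were not fitted together.

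Tlr9 (chr9:106222598-106226883, plus strand), the receptor for unmethylated CpG DNA, rose with RANKL in both genotypes. It was at 22.1 and 17.4 CPM in WT Basal, 50.7 and 43.1 CPM in WT RANKL, 18.9 and 16.8 CPM in Mir182ΔM/ΔM Basal and 42.5 and 36.2 CPM in Mir182ΔM/ΔM RANKL, against 7.56 to 10.1 CPM in the gain of function libraries. The rise was log2 1.21 ± 0.15 SE in WT (adjusted p = 0.00030) and 1.10 ± 0.15 SE in Mir182ΔM/ΔM (adjusted p = 0.00059). Between genotypes after RANKL the difference was -0.25 ± 0.15 SE and did not pass the test (adjusted p = 0.212), although it did with the replicate block (adjusted p = 0.00122).

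**Figure D2:**
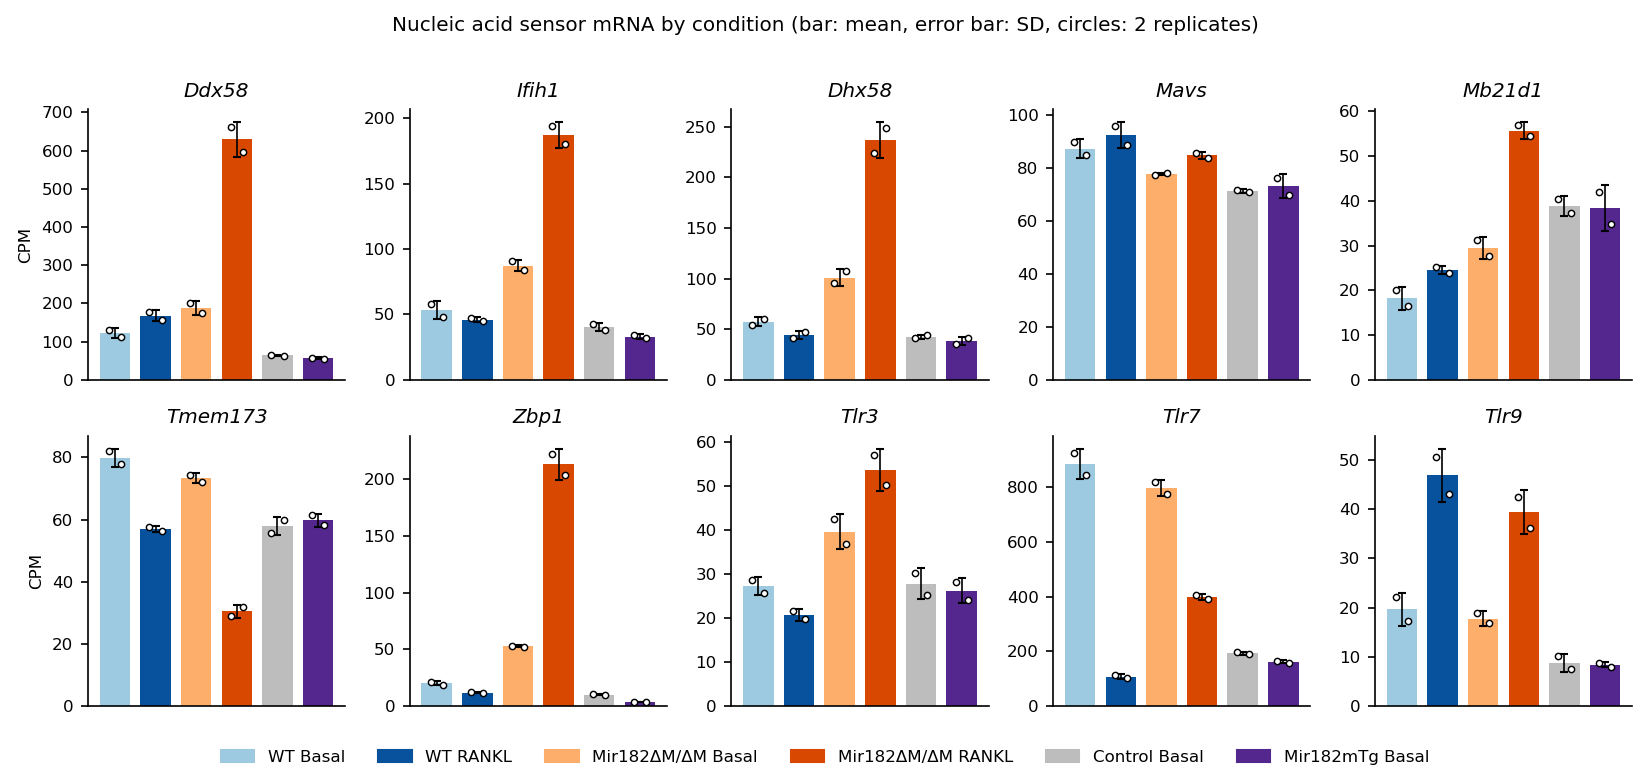
CPM (y axis, linear, one scale per gene) of the 10 sensors in the 6 conditions, as bars for the mean of 2 replicates, error bars for the SD and circles for each replicate. Ddx58, Ifih1, Dhx58, Mb21d1, Zbp1 and Tlr3 are highest in Mir182ΔM/ΔM RANKL, Tmem173 is lowest there, Mavs varies little, Tlr7 is highest without RANKL in WT and Mir182ΔM/ΔM, and Tlr9 is highest in both RANKL groups.

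Levels of different genes can be compared only per length, for which replicate 1 has RPKM (reads per kilobase of gene, scaled to the same library size). On that scale Tlr7 led in WT Basal at 232 RPKM, followed by Tmem173 at 35.6, Mavs at 28.1 and Ddx58 at 26.6, with Mb21d1 the lowest at 4.84 RPKM. In WT RANKL, Ddx58 was the highest at 36.1 RPKM and Tlr7 was at 28.6 RPKM. Control Basal, with no test, had 13.3 RPKM of Ddx58 and 49.8 RPKM of Tlr7. In Mir182ΔM/ΔM RANKL the order was Ddx58 at 134, Zbp1 at 103, Tlr7 at 102 and Dhx58 at 93.0 RPKM, while Tmem173 was at 12.6 RPKM. Zbp1 had been at 10 RPKM in WT Basal. These RPKM values have no replicate.

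Counted together, 7 of the 10 sensors were higher and 1 was lower in Mir182ΔM/ΔM RANKL than in WT RANKL, and 2 did not pass the test. These counts contain the WT RANKL libraries and so the Lyz2 and Ifi202b difference, from which they cannot be told apart. Control Basal levels of each sensor are given above. Of all 11673 genes tested, 14.3% were called higher and 30.9% lower, so the sensors' share of higher calls was above the background and their share of lower calls below it. The median log2 fold change was 1.60 over the sensors and -0.14 over all genes. That median moves to about 0 with TMM factors, which then call 20.9% of genes higher and 20.2% lower and leave the sensors at 7 higher and 1 lower. In this comparison the osteoclast markers, given above, had the lower sum in Mir182ΔM/ΔM, as did neutrophil and precursor markers (5.59 to 5.81 CPM against 19.0 to 19.3 CPM) and B cell markers (0.296 to 0.472 CPM against 3.2 to 3.67 CPM), and their part in the sensor values was not tested.

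Without RANKL, 5 sensors were already higher in Mir182ΔM/ΔM than in WT. Zbp1 was 2.61-fold higher (log2 1.34 ± 0.092 SE, adjusted p = 0.00080) and Dhx58 1.77-fold higher (log2 0.81 ± 0.10 SE, adjusted p = 0.00911). Ifih1 was 1.65-fold higher (log2 0.72 ± 0.10 SE, adjusted p = 0.0125), Mb21d1 1.62-fold (log2 0.67 ± 0.11 SE, adjusted p = 0.0234) and Ddx58 1.53-fold (log2 0.61 ± 0.11 SE, adjusted p = 0.0326). Tlr3 was 1.46-fold higher and just missed the threshold (adjusted p = 0.0515). Over all genes 2.72% were called higher and 1.11% lower, against 5 and 0 of the 10 sensors by limma. DESeq2 called 6 sensors higher and 0 lower, against 377 and 203 of 16766 genes. At an unadjusted p under 0.05, 6 sensors were higher and 1 lower, and the share of all genes at that cutoff is not given. The sensor count was 8 with the replicate block, at which 18.6% of all genes were called higher and 12.7% lower: Tlr3 joined the higher genes (adjusted p = 2.8e-07), and Mavs (log2 -0.17, adjusted p = 0.00341) and Tlr7 (log2 -0.15, adjusted p = 0.00074) were called lower. This comparison does not involve the WT RANKL samples except in the shared estimate of the spread. Macrophage markers summed to 7427 to 7464 CPM in Mir182ΔM/ΔM Basal and 8249.8 to 8475 CPM in WT Basal. Neutrophil and precursor markers summed to 95.3 to 101 CPM and 79.4 to 87.1 CPM in the same groups. The part of these markers in the sensor values was not tested. The sensor count also rested on single libraries. It was 1 without replicate 2 of Mir182ΔM/ΔM Basal, and 2 or 3 without replicate 1 of either Mir182ΔM/ΔM group, replicate 2 of Mir182ΔM/ΔM RANKL or either WT Basal replicate, with Zbp1 called each time. The log2 values of the lost calls stayed between 0.50 and 0.77. With 1 library left out the background was lower as well, at 0.592% to 1.86% of all genes higher and 0.240% to 0.706% lower.

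The response to RANKL itself went in different directions in WT cells. WT RANKL against WT Basal gave 3 sensors higher, Tlr9 (above), Ddx58 (log2 0.45 ± 0.11 SE, adjusted p = 0.0101) and Mb21d1 (0.41 ± 0.11 SE, adjusted p = 0.0139). It gave 5 lower: Tlr7 (above), Zbp1 (-0.72 ± 0.092 SE, adjusted p = 0.00041), Tmem173 (-0.48 ± 0.073 SE, adjusted p = 0.00101), Tlr3 (-0.38 ± 0.11 SE, adjusted p = 0.0203) and Dhx58 (-0.37 ± 0.10 SE, adjusted p = 0.0169). The background was 40.6% of genes higher and 22.0% lower, with a median of 0.19 over all genes and -0.28 over the sensors. With TMM factors, which call 28.8% of genes higher and 30.5% lower, only Tlr9 stayed higher, Ddx58 (0.24, adjusted p = 0.0913) and Mb21d1 (0.21, adjusted p = 0.127) no longer passed, and Ifih1 was added to the 5 lower genes (-0.40, adjusted p = 0.0101). The calls of Ddx58 and Mb21d1 in WT therefore rest on the scaling. With 1 library left out, fewer of all genes were called higher and fewer were called lower than in the full fit. Without replicate 1 of WT RANKL the calls of Ddx58 (0.36), Dhx58 (-0.28) and Mb21d1 (0.38) were lost. Without replicate 2 of WT Basal these 3 calls were lost too (0.35, -0.29 and 0.28) and Ifih1 passed (-0.32), and the call of Tlr3 was lost without replicate 1 of WT Basal (-0.30) or replicate 2 of WT RANKL (-0.31).

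These WT values rest on the unstimulated group they are read against, since WT RANKL and WT Basal differ in Lyz2 and Ifi202b. Against Control Basal, with no test, WT RANKL stood at 0.24 for Zbp1, 0.05 for Dhx58 and -0.65 for Mb21d1 on the log2 scale, signs opposite to those above, and at -0.02 for Tmem173. The sign was the same for Ddx58 (1.37), Tlr9 (2.29), Tlr3 (-0.41) and Tlr7 (-0.84). Neutrophil and precursor markers summed to 79.4 to 87.1 CPM in WT Basal and 19.0 to 19.3 CPM in WT RANKL, and macrophage markers to 8249.8 to 8475 CPM and 5620.0 to 5690.1 CPM, and their part in the sensor values was not tested.

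In Mir182ΔM/ΔM cells RANKL raised 7 sensors and lowered 2, against 30.5% and 26.3% of all genes. Zbp1 rose 4.02-fold (log2 1.99 ± 0.092 SE, adjusted p = 3.4e-06), Ddx58 3.36-fold (log2 1.75 ± 0.11 SE, adjusted p = 1.5e-05), Dhx58 2.34-fold, Ifih1 2.14-fold, Mb21d1 1.89-fold and Tlr3 1.35-fold, beside Tlr9. The call of Tlr3 was lost without replicate 1 of Mir182ΔM/ΔM RANKL (log2 0.34) or replicate 2 of Mir182ΔM/ΔM Basal (log2 0.33). Tmem173 fell 2.40-fold (log2 -1.24 ± 0.073 SE, adjusted p = 1.0e-05), beside Tlr7. Mavs differed by 0.13 ± 0.067 SE (adjusted p = 0.147). In these 4 libraries Lyz2 was at 34.6 and 31.2 CPM without RANKL and at 24.0 and 22.5 CPM with it. Ifi202b was at 101 and 82.1 CPM without RANKL and at 152 and 143 CPM with it. Neutrophil and precursor markers summed to between 95.3 and 101 CPM without RANKL and between 5.59 and 5.81 CPM with it. Macrophage markers summed to 7427 to 7464 CPM without RANKL and 5885 to 5997 CPM with it. The part of these differences in the sensor values was not tested. The median log2 fold change was 0.99 over the sensors and 0.05 over all genes.

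The difference between these 2 responses was tested as an interaction. The response in Mir182ΔM/ΔM exceeded that in WT for Zbp1 by 2.70 ± 0.13 SE on the log2 scale (adjusted p = 3.9e-05), for Tlr7 by 2.02 ± 0.11 SE (adjusted p = 6.3e-05), for Dhx58 by 1.59 ± 0.15 SE (adjusted p = 0.00039), for Ifih1 and Ddx58 by 1.29 each (SE 0.14 and 0.16, adjusted p = 0.00082 and 0.00134) and for Tlr3 by 0.81 ± 0.16 SE (adjusted p = 0.00958). For Tmem173 it was lower by -0.76 ± 0.10 SE (adjusted p = 0.00212). That is 6 sensors higher and 1 lower, against 7.46% and 17.2% of all genes. Zbp1, Dhx58 and Tlr3 were lower with RANKL than without it in WT and rose in Mir182ΔM/ΔM, although for Zbp1 and Dhx58 WT RANKL was not below Control Basal. Mb21d1 missed the threshold (0.48 ± 0.16 SE, adjusted p = 0.0645), and passed it with TMM factors (0.64, adjusted p = 0.0238), under which 10.6% of genes were called higher and 10.9% lower, with the replicate block (adjusted p = 0.00010), and without replicate 2 of WT Basal (0.61, adjusted p = 0.0320). Mavs (0.05 ± 0.095 SE) and Tlr9 (-0.11 ± 0.21 SE) did not pass. Every value of this paragraph contains the WT RANKL libraries and so the Lyz2 and Ifi202b difference, from which it cannot be told apart.

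**Figure D3:**
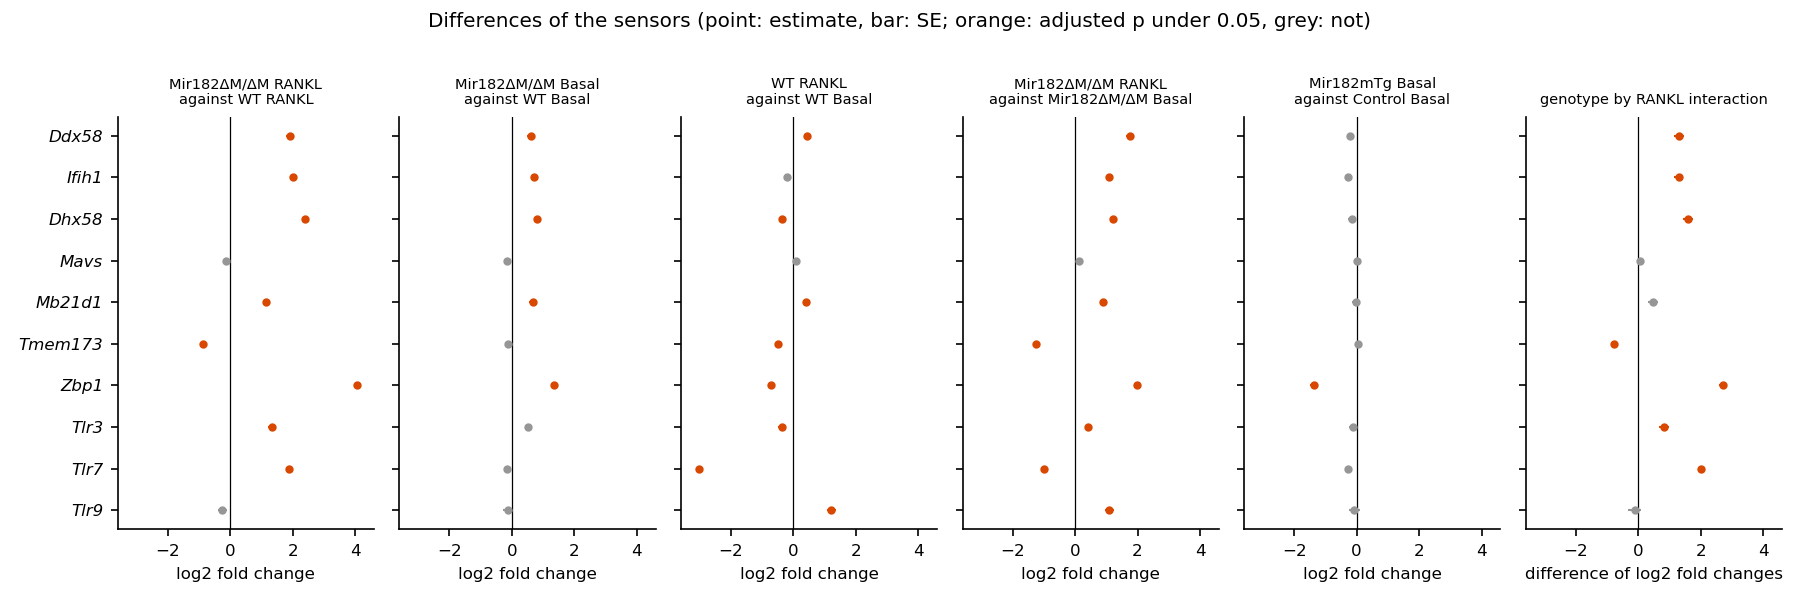
Log2 fold changes of the 10 sensors (x axis) in the 5 comparisons of 2 groups and, at the right, the difference of the responses to RANKL between genotypes, with points for the estimate and bars for the SE, which is mostly narrower than the point. Orange points have an adjusted p under 0.05, and Zbp1 is orange in all 6 panels, at 4.05 after RANKL and -1.35 with the transgene. Values are from limma on log2(CPM + 1), except those of Mir182mTg Basal against Control Basal, which are from edgeR.

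With Mir182 overexpressed, 1 sensor passed the test, and it was lower. Zbp1 was 2.53-fold lower in Mir182mTg Basal than in Control Basal (log2 -1.35 ± 0.13 SE, adjusted p = 0.0451, edgeR). Of all 12081 genes, 0.0993% were called higher and 0.157% lower, and with 1 library left out 0.253% to 0.689% higher and 0.196% to 0.657% lower, with Zbp1 called each time. No sensor was called higher by edgeR, limma or DESeq2, and none was at an unadjusted p under 0.05. At an unadjusted p under 0.05, 4 sensors were lower, Zbp1, Tlr7 (log2 -0.26 ± 0.071 SE), Ifih1 (-0.29 ± 0.096 SE) and Ddx58 (-0.21 ± 0.082 SE), and the adjusted p of the last 3 lay between 0.442 and 0.686. The share of all genes at that unadjusted cutoff is not given, so these 4 cannot be set against a background. With the replicate block, which calls 6.94% of genes higher and 8.15% lower, 5 sensors were lower and 0 higher: Zbp1 (adjusted p = 4.7e-07), Tlr7 (adjusted p = 3.1e-05), Ifih1 (adjusted p = 0.00078), Ddx58 (adjusted p = 0.00253) and Dhx58 (adjusted p = 0.0368). With a stricter filter on low values the adjusted p of Zbp1 was 0.0503. Neutrophil and precursor markers were also higher in Mir182mTg Basal, at 102 to 113 CPM in sum against 48.4 to 50.1 CPM, and their part in these values was not tested.

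Loss and gain of Mir182 without RANKL share no samples, so their values can be set side by side. The loss values are from limma on log2(CPM + 1) and the gain values from edgeR, so signs can be compared more safely than sizes. On log2(CPM + 1), Zbp1 in gain was at -1.17 in replicate 1 and -1.12 in replicate 2. Zbp1 was at 1.34 in loss and -1.35 in gain on the log2 scale, Ifih1 at 0.72 and -0.29, Ddx58 at 0.61 and -0.21, and Dhx58 at 0.81 and -0.16. Mb21d1 and Tlr3, at 0.67 and 0.53 in loss, were at -0.03 and -0.10 in gain, within or near their SE. Tlr7 was at -0.15 and -0.26. Of the 2 genes with a miR-182-5p seed match, Ifih1 had the opposite signs given above and Tmem173 was at -0.12 in loss and 0.04 in gain. Pairing was not tested for either gene. Only Zbp1 passed the test in both experiments without the replicate block.

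**Figure D4:**
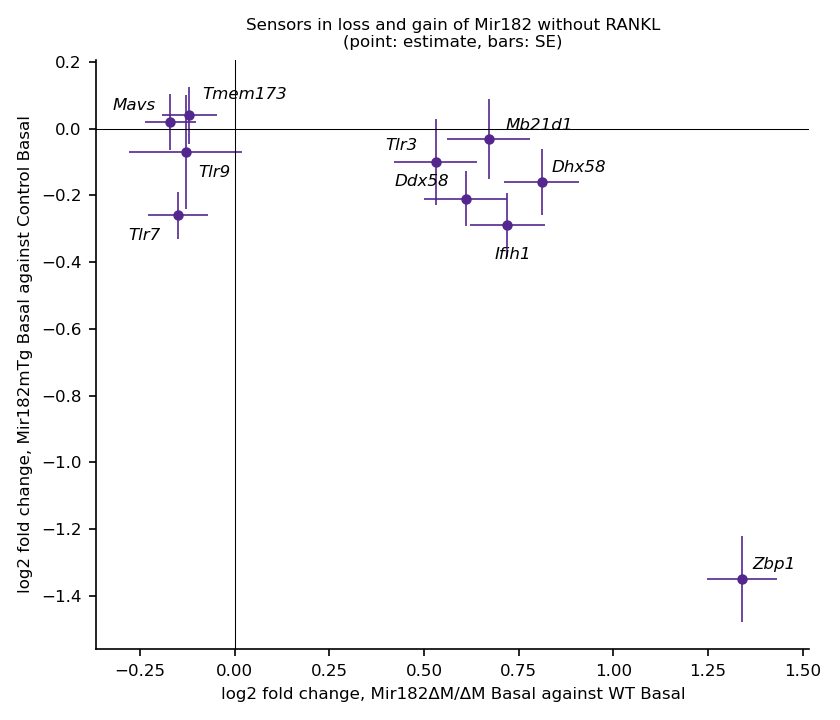
Log2 fold change of each sensor with Mir182 lost (x axis, Mir182ΔM/ΔM Basal against WT Basal, limma on log2(CPM + 1)) and with Mir182 overexpressed (y axis, Mir182mTg Basal against Control Basal, edgeR), with points for the estimate and bars for the SE. Zbp1 stands at the lower right, at 1.34 and -1.35, and Mavs and Tmem173 lie near 0 on both axes.

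Genes that act around the sensors went in both directions after RANKL. Of 91 genes in 5 lists, 89 were tested, of which 31 (34.8%) were higher in Mir182ΔM/ΔM RANKL than in WT RANKL, 20 (22.5%) were lower and 38 did not pass, against 14.3% and 30.9% of all genes. Among 25 genes of signalling from the sensors, 6 were higher and 9 lower, with a median log2 fold change of -0.08, which was 0.07 with TMM factors, at 7 higher and 8 lower. Irf7, the transcription factor that amplifies type I IFN, was at 1326 ± 41.2 CPM against 48.7 ± 1.43 CPM (log2 4.74 ± 0.062 SE, adjusted p = 8.0e-08), and Ikbke, a kinase that acts beside TBK1, differed by 0.70 ± 0.067 SE. At the other end stood Irak4, the kinase downstream of MYD88, at -0.76 ± 0.11 SE (adjusted p = 0.00139), and Tbkbp1, a TBK1 adaptor, at -0.67 ± 0.081 SE (adjusted p = 0.00058). Control Basal means, with no test, were 35.9 CPM for Irf7, 124 for Ikbke, 44.5 for Irak4 and 45.4 for Tbkbp1. In Mir182ΔM/ΔM RANKL and WT RANKL, Ikbke was at 163 and 100, Irak4 at 28.8 and 49.5, and Tbkbp1 at 40.5 and 65.2 CPM. All list values after RANKL contain the WT RANKL libraries and so the Lyz2 and Ifi202b difference.

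Of 24 tested regulators of RIG-I-like receptors and MAVS, 6 were higher and 9 lower, with a median of -0.13. With TMM factors 8 were higher and 6 lower, at a median of 0.02, and with the replicate block 8 were higher and 14 lower, where 23.4% of all genes were higher and 49.8% lower. Ddx60, a helicase related to the RIG-I pathway, differed by 3.02 ± 0.10 SE, with 129.9 CPM against 15.1 CPM, and Nlrc5 by 2.12 ± 0.13 SE. Tnfaip3, which encodes the ubiquitin editor A20, an inhibitor of inflammatory signalling, was lower by -0.98 ± 0.075 SE, and Nlrx1, a mitochondrial protein, by -0.80 ± 0.19 SE (adjusted p = 0.0129). Among 21 cGAS-STING regulators and nucleic acid clearing enzymes, 7 were higher and 1 was lower, with a median of 0.09, and with the replicate block 10 were higher and 5 lower. The DNA exonuclease Trex1 differed by 1.26 ± 0.068 SE and the RNA editor Adar by 1.21 ± 0.080 SE, while Enpp1, which degrades the product of cGAS, was at -0.44 ± 0.082 SE (adjusted p = 0.00426) and Rnf5 at -0.30 ± 0.13 SE (adjusted p = 0.0963). Control Basal, with no test, had 8.55 CPM of Ddx60, 42.4 of Nlrc5, 35.4 of Tnfaip3 and 22.7 of Nlrx1. For Trex1, Adar, Enpp1 and Rnf5 it had 40.9, 119.6, 45.8 and 53.6 CPM. In Mir182ΔM/ΔM RANKL and WT RANKL, Nlrc5 was at 173 and 38.9, Tnfaip3 at 46.8 and 93.1, and Nlrx1 at 13.0 and 23.4 CPM. Trex1 was at 238 and 99.1, Adar at 286 and 123, Enpp1 at 6.52 and 9.21, and Rnf5 at 57.3 and 70.5 CPM.

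Of 16 tested genes listed for the trafficking and processing of endosomal TLRs, 10 were higher and 0 lower by limma, with a median of 0.35. This list also holds Tlr8 and Tlr13, which are receptors themselves, and Cd14. Tlr8, Tlr13 and Cd14 were each among the genes called higher. At an unadjusted p under 0.05, 11 were higher and 0 lower, with no share of all genes given at that cutoff. By DESeq2 10 were higher and 0 lower. With the replicate block 12 were higher and 2 lower, against 23.4% and 49.8% of all genes. The protease Ctsl was at 2162 ± 216 CPM against 785 ± 58.2 CPM (log2 1.46 ± 0.095 SE), and Tlr8 differed by 1.32 ± 0.12 SE. Hgs, at -0.14 ± 0.092 SE and 0.01 with TMM factors, and Ap3b1, at -0.31 ± 0.14 SE, did not pass. Of the partners of ZBP1 in cell death, the kinase Ripk3 (0.92 ± 0.14 SE, adjusted p = 0.0015) and its substrate Mlkl (0.81 ± 0.11 SE, adjusted p = 0.00098) were higher and Casp6 was lower (-0.75 ± 0.099 SE, adjusted p = 0.00089). The median of all tested genes was -0.14 in this comparison. Control Basal, with no test, had 2609 CPM of Ctsl, above both RANKL groups, 101 CPM of Hgs and 173 CPM of Ap3b1. Its Tlr8 was at 196 CPM, against 223 in Mir182ΔM/ΔM RANKL and 88.6 in WT RANKL. Its Casp6 was at 20.0 CPM, against 19.4 and 33.2 in the same groups. Its Ripk3 was at 67.7 CPM, against 163 and 85.6, and its Mlkl at 31.9 CPM, against 73.5 and 41.6.

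**Figure D5:**
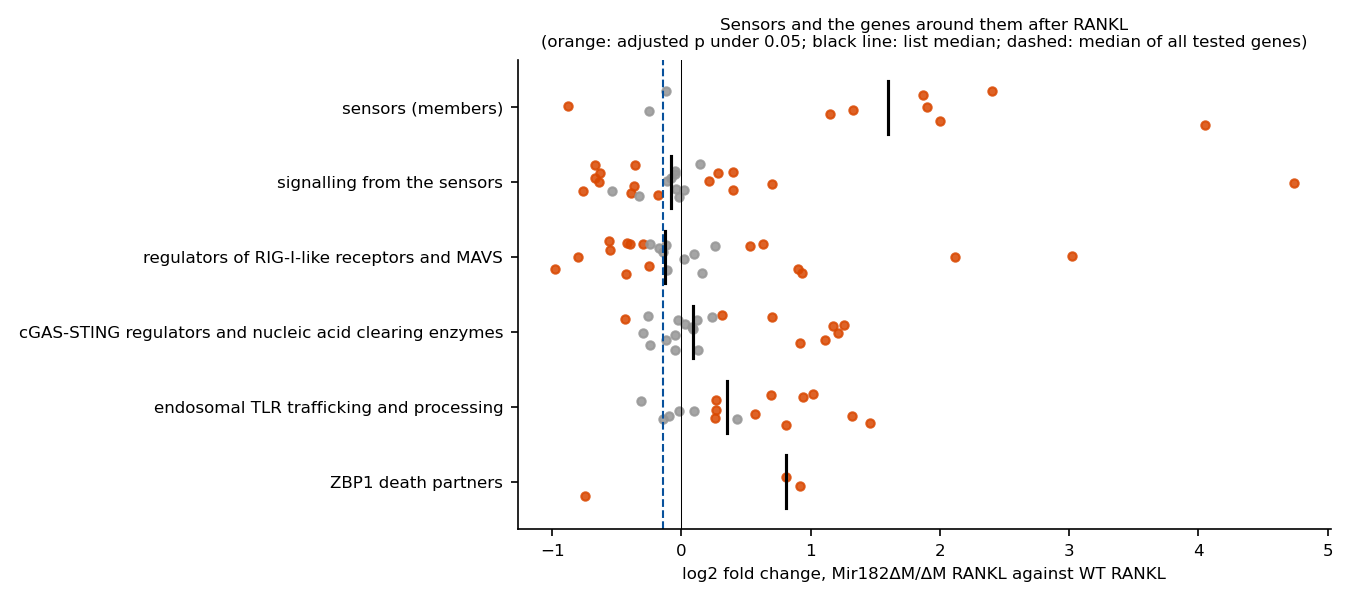
Log2 fold change in Mir182ΔM/ΔM RANKL against WT RANKL (x axis) of each tested gene of the sensors and of 5 lists around them, with orange points for an adjusted p under 0.05, grey points for the rest, black lines for the list medians and a dashed line for the median of all tested genes at -0.14. The sensors have a median of 1.60, and the signalling and MAVS regulator lists spread to both sides of 0 around medians of -0.08 and -0.13, with Irf7 and Ddx60 far to the right.

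Without RANKL, 6 of the 89 list genes (6.74%) were called between genotypes, against 2.72% of all genes called higher. Called were 1 of 25 signalling genes (Irf7, at 1.38 ± 0.062 SE, adjusted p = 9.5e-05), 1 of 24 MAVS regulators (Ddx60, at 0.82 ± 0.10 SE), 2 of 21 cGAS-STING regulators and clearing enzymes (Trex1 at 0.43 and Adar at 0.51), 2 of 16 TLR trafficking genes (Ctss at 0.44 and Lrrc59 at 0.34) and 0 of 3 ZBP1 partners, each of those called being higher. For the 3 ZBP1 partners, DESeq2 also called 0, and 1 was higher and 1 lower at an unadjusted p under 0.05. Counts with the replicate block were larger, at 8 higher and 1 lower for the MAVS regulators and 5 and 5 for TLR trafficking, as was the background of 18.6% and 12.7%. In Mir182mTg Basal against Control Basal 0 genes of the 5 lists were called by edgeR, while 2 were higher and 4 lower at an unadjusted p under 0.05, and DESeq2 called 3 lower, Ctss, Enpp1 and Irf7. Irf7 was at -0.62 ± 0.088 SE by edgeR (adjusted p = 0.0911), with 23.5 CPM against 35.9 CPM.

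The interferons that these sensors induce were at the limit of detection. The 13 Ifna genes had 0 reads in all 12 libraries. Ifnb1 had reads in 5 libraries and at most 5 reads in any: 3 and 5 in Mir182ΔM/ΔM RANKL, 1 and 2 in Mir182ΔM/ΔM Basal, 1 in 1 Control Basal library and none in the others. A difference cannot be sized at this depth.

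Likeness was measured by Pearson's r of log2(CPM + 1) over the 8 loss of function samples, for the 3 sensors with the widest range of group means in that experiment. The most alike genes were Ifit3, Iigp1 and Parp11 for Zbp1 (r of 0.99921, 0.99867 and 0.99860), Lamp2, Lgals1 and Dtnbp1 for Tlr7 (0.99858, 0.99810 and 0.99692) and Tpst1, Itpr1 and Phf11a for Dhx58 (0.99806, 0.99767 and 0.99625). The points are 4 groups of 2 libraries, so such values are reached by any genes that share the order and spacing of 4 group means.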

How the data were processed

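Gene-level RNA-seq files of 12 samples were used. CPM were deposited by the authors for WT and Mir182ΔM/ΔM (8 samples), and 100% of values were whole multiples of 1 read (tolerance 0.05), so reads were recovered. Counts were deposited for Control and Mir182mTg (4 samples), and were scaled here to CPM. Replicate 1 files also hold RPKM deposited by the authors. The submitters' processing notes name mm10, with TopHat and Cufflinks for replicate 1 and HISAT2, HTSeq and edgeR for replicate 2. Rows whose names had become dates were dropped.

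CPM were tested with limma 3.58.1 (trend) on log2(CPM + 1) for genes that reached 1 CPM in 2 or more samples, in 1 fit of 4 groups. Fold changes on this scale understate changes of low genes. Counts were tested with edgeR 4.0.16 (TMM, filterByExpr, quasi-likelihood). P-values were adjusted by Benjamini-Hochberg over all genes, at a threshold of 0.05. Counts at an unadjusted p under 0.05 stand without the share of all genes at that cutoff. The shares called are no background for them. Both tests were run on simulated counts with a fixed spread and no replicate batch, so that check does not cover the batch described below. The study calls the replicates biological, but the labels name no animals, so p-values measure the spread between these samples, which may be technical. Replicate numbers mark a batch (labels and tools), and rep2 minus rep1 log ratios correlated between all 15 pairs of conditions (r 0.677 to 0.741 over 11962 genes), so a fit with replicate as a block was an alternative, beside other filters, pseudocounts, scalings, DESeq2 1.42.0 and leaving out each library. Named genes of each list were the 2 largest and 2 smallest log2 fold changes in Mir182ΔM/ΔM RANKL against WT RANKL. Members and lists were chosen with earlier results of these data known. Positions are from GENCODE vM21 (GRCm38, also called mm10), and miRNA and promoter sequences from RefSeq (GRCm38.p6).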

Additional observations from a re-analysis of the deposited data

Results flagged for a closer look

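For 7 sensors the response to RANKL differed between genotypes by the interaction test given in the report. On the log2 scale, the response in Mir182ΔM/ΔM minus that in WT was 1.29 for Ddx58, 1.29 for Ifih1, 1.59 for Dhx58, -0.76 for Tmem173, 2.70 for Zbp1, 0.81 for Tlr3 and 2.02 for Tlr7. All 7 values include the WT RANKL libraries, whose Lyz2 and Ifi202b levels are unlike those of the other loss of function libraries.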

How the results depend on the processing

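Over 1000 values of single sensors under the alternatives, 897 kept their direction and side of the threshold, 46 lost the threshold, 30 gained it and 27 changed sign. The number of sensors called in Mir182ΔM/ΔM Basal against WT Basal was 5. It was 1 with no filter, where 205 of 24394 genes were higher and 104 lower. With the samples of the comparison alone it was 2 (73 higher and 31 lower of 11044 genes). It was 8 with the replicate block (2166 and 1477 of 11673) and 9 with edgeR and the replicate block (1915 and 1775 of 12561). With 1 library left out calls were lost, as given above, and the log2 values of these 5 sensors lay between 0.50 and 1.44. In WT RANKL against WT Basal the number was 8, where 4738 of 11673 genes were higher and 2566 lower. It was 4 with no filter, where 4323 of 24394 genes were higher and 2321 lower. Calls lost with 1 library left out are given above with their log2 values. In Mir182mTg Basal against Control Basal the number of sensors called was 1. It was 0 with a stricter filter, where 8 of 10843 genes were higher and 8 lower, and 5 with the replicate block (838 and 984 of 12081). With that stricter filter 4 sensors were at an unadjusted p under 0.05, and the share of all genes at that cutoff is not given. With 1 library left out, log2 values in Mir182ΔM/ΔM RANKL against WT RANKL stayed between 1.11 and 4.11 for the 7 higher sensors. Tmem173 stayed between -0.95 and -0.82 there. In Mir182ΔM/ΔM RANKL against Mir182ΔM/ΔM Basal the 7 higher sensors stayed between 0.33 and 2.05, Tlr7 between -1.04 and -0.96 and Tmem173 between -1.30 and -1.17. In the interaction the 6 higher sensors stayed between 0.70 and 2.80, and Tmem173 between -0.83 and -0.69. The replicate block also added Mavs and Tlr9 in Mir182ΔM/ΔM RANKL against WT RANKL, Ifih1 in WT RANKL against WT Basal, Mavs in Mir182ΔM/ΔM RANKL against Mir182ΔM/ΔM Basal and Mb21d1 in the interaction, and removed no call of a sensor.

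No sensor that passed the main test changed sign. Mavs in Mir182ΔM/ΔM RANKL against WT RANKL became 0.032 with TMM factors, 0.031 with edgeR, 0.032 with DESeq2 and 0.032 with edgeR and the replicate block. Mavs in WT RANKL against WT Basal became -0.13 with TMM factors, -0.053 with quantile normalization, -0.13 with edgeR, -0.11 with DESeq2 and -0.13 with edgeR and the replicate block (adjusted p = 0.0054). The interaction of Tlr9 became 0.053, 0.029, 0.070, 0.074 and 0.068 under these 5. With 1 library left out, signs changed within -0.0072 to 0.10 for the interaction of Mavs, -0.28 to 0.052 for that of Tlr9 and -0.30 to 0.030 for Tlr9 between genotypes without RANKL. In the gain of function comparison they changed within -0.046 to 0.088 for Mavs, -0.18 to 0.10 for Mb21d1, -0.013 to 0.097 for Tmem173, -0.22 to 0.035 for Tlr3 and -0.25 to 0.15 for Tlr9. The cause was not tested.

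Over all genes, calls in Mir182ΔM/ΔM RANKL against WT RANKL were 1666 higher and 3609 lower, 2438 and 2360 with TMM factors and 2737 and 5809 with the replicate block. Without RANKL they were 317 and 129, and 2166 and 1477 with the block. For the interaction they were 871 and 2004, 1237 and 1274 with TMM factors and 1885 and 4993 with the block. For the transgene they were 12 and 19, 57 and 67 with DESeq2, 838 and 984 with the block, and 31 to 85 and 24 to 81 with 1 library left out. Dividing CPM by TMM factors over all 12 samples moved sensor levels by 0.917 to 1.07 times. Every sensor had at least 108 reads in each library, so depth allowed each of them to be measured.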
